A study of Mus musculus with 2 samples.

Results

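The miR-30 family of the embryonic mouse heart was read here from its 6 genes, Mir30a, Mir30b, Mir30c-1, Mir30c-2, Mir30d and Mir30e. The genes were chosen by name, through the Ensembl identifiers of the deposited tables, and make up 6 of 1973 listed miRNA genes. The rule itself uses names and no values, although results of these data were known when the family was picked. Small RNA came from heart tissue of B6NCrl embryos at embryonic day 16.5, healthy and of both sexes. There was 1 group, with 2 libraries labelled as biological replicates, and no treatment or mutation. Replicate 2 was pooled from 41 embryos, while replicate 1 was a pool whose size is not stated in the labels. Pools hide any spread between animals, and heart tissue mixes muscle, vessel, fibroblast and blood cells. In such samples fewer cells of a type and less RNA per cell cannot be told apart.

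A microRNA is cut from a hairpin whose arms, called 5p and 3p, can each give a mature strand that loads into an Argonaute protein. Bases 2 to 8 of the mature strand, the seed, pair with target mRNAs, so genes that share a seed form a family with overlapping targets. The miR-30 genes lie in linked pairs on 3 chromosomes. The family is known as abundant in heart muscle cells and has been linked there to the control of Ctgf (Ccn2), a matrix-promoting growth factor, and of autophagy.

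The mature sequences are shown because they set which reads can be counted. RefSeq (mm10) held both arms for 4 of the 6 genes: Mir30a, Mir30c-1, Mir30c-2 and Mir30e. Mir30b and Mir30d are named without sequence. The 5p strands follow, 5′ to 3′, with the seed in capitals.
miR-30a-5p: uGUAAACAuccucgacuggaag
miR-30e-5p: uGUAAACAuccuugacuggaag
miR-30c-5p: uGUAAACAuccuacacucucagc
miR-384-5p: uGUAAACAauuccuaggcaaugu

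All 4 genes have the same 5p seed. Counted from base 1 of miR-30a-5p, miR-30e-5p differs from it by the single substitution C13U, and miR-30c-5p by C13A, G14C, G18C, G19U and A20C over the first 22 bases. Mir30c-1 and Mir30c-2 encode the identical miR-30c-5p. In the RefSeq miRNA table Mir384 was the only other listed gene with this seed at bases 2 to 8. The 3p strands, again with bases 2 to 8 in capitals, divide the same genes into a pair of seeds.
miR-30a-3p: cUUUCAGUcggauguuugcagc
miR-30e-3p: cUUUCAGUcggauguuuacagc
miR-30c-1-3p: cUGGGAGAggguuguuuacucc
miR-30c-2-3p: cUGGGAGAaggcuguuuacucu

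The 3p strands of Mir30a and Mir30e differ by G18A. Those of Mir30c-2 and Mir30c-1 differ by A9G, C12U and U22C, counted from base 1 of miR-30c-2-3p. Of the other listed genes in the RefSeq table, Mir6958 alone has a mature strand with 1 of these 3p seeds (UGGGAGA).

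The linked pairs have different surroundings in mm10. On chromosome 1, plus strand, Mir30a (ENSMUSG00000065405.2; 23272269 to 23272339) overlaps no other annotated gene. Mir30c-2 (ENSMUSG00000065567.1; 23291701 to 23291784) lies 19361 bases further on, wholly within an exon of the long noncoding RNA Gm27028. On chromosome 4, minus strand, Mir30c-1 (ENSMUSG00000065490.1; 120769534 to 120769622) and Mir30e (ENSMUSG00000065409.1; 120772606 to 120772697) are 2983 bases apart. Both are intronic in Nfyc, which encodes a subunit of the CCAAT-binding factor NF-Y. On chromosome 15, minus strand, Mir30b (ENSMUSG00000065476.2; 68337415 to 68337510) and Mir30d (ENSMUSG00000065437.1; 68341208 to 68341289) are 3697 bases apart. Mir30d lies within an exon of the long noncoding RNA Gm20732 and also overlaps the annotated gene Gm37296 by 9 bases. Mir30b overlaps the noncoding transcript gene Gm26621 by 16 bases. The host RNAs themselves were not measured in these libraries.

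The libraries held 6473482 (replicate 1) and 5841568 (replicate 2) sense counts at miRNA genes. Levels are given as sense counts per 1000000 of these counts (CPM). A gene with 10 or more counts in each library was taken as detected, which held for 365 genes and for all 6 miR-30 genes. The heart muscle miRNAs Mir208a, Mir208b and Mir499 were all detected and summed to 6.77% and 6.71% of sense counts in replicates 1 and 2. Mir1a-1, Mir133a-1 and Mir133b, also known from muscle, had only 19, 19 and 26 counts in replicate 1. In replicate 2 they had 11, 14 and 27. The summed share is therefore not that of all heart muscle miRNAs, and the part of shared reads in these low counts was not tested. Counts at 5 listed genes of the miR-9 and miR-124 families, markers of neural tissue, summed to 18 and 1. None of the 5 was detected, and Mir9-2 and Mir124a-3 had 0 counts in both libraries. The hairpins of Mir9-2 and Mir9-3 each share a 20-base window with 2 others, and miR-124 too has several gene copies. Reads common to the copies are missing, so these low counts do not show that neural miRNAs were absent. Mir137, Mir129-2 and Mir153, also known from neural tissue, were detected. They had 458, 104 and 94 counts in replicate 1 and 417, 168 and 39 in replicate 2. The blood miRNAs chosen were present, with Mir451a and Mir144 together at 0.204% and 0.172%, and Mir223 and Mir155 at 0.0563% and 0.0685%. Mir451a, at 1658 and 1363 CPM, ranked 67 by mean level among all listed genes. Other blood miRNAs and opposite-strand counts were not included in these shares. The liver miRNA Mir122 stood near 0.016% in each (0.0160% and 0.0161%). Endothelial Mir126a held 8.59% and 8.42%, and smooth muscle Mir143 and Mir145a together 9.73% and 9.81%. Whether these cell types contribute miR-30 reads was not tested.

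Together the miR-30 genes took 339847 counts in replicate 1 and 333358 in replicate 2. These are 5.25% (Wilson 95% interval 5.23 to 5.27) and 5.71% (5.69 to 5.73) of sense counts, a mean of 5.48% ± 0.32 (SD, n = 2). The share was 1.09-fold higher in replicate 2, by more than counting error. Among counted reads nearly all of it came from 3 genes: Mir30e, Mir30a and Mir30d held 99.4% and 99.1% of the family's counts. Mir30b, Mir30c-1 and Mir30c-2 together held 0.596% and 0.901%. The family total and this division leave out reads that match both Mir30c-1 and Mir30c-2, as the identical miR-30c-5p does, so neither is known for all reads.

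Mir30e, one of the Nfyc intronic genes, was the highest member. It had 175542 counts in replicate 1 and 175220 in replicate 2, or 27117 and 29995 CPM (mean 28556 ± 2035, SD, n = 2). Its place among all listed genes was rank 11 in replicate 1 and rank 10 in replicate 2. It alone made up 51.7% and 52.6% of the family's counts, more than the other 5 genes combined in counted reads. With reads matching several places, which are in no gene count, that order is not known.

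Mir30a had 87073 and 78929 counts, or 13451 and 13512 CPM (mean 13481 ± 43.1, SD, n = 2). It was the steadiest of the 6, with an SD of 0.319% of its mean. Mir30d had 75207 and 76205 counts, or 11618 and 13045 CPM (mean 12332 ± 1009, SD, n = 2). Mir30a made up 25.6% and 23.7% of the family and Mir30d 22.1% and 22.9%. Both ranked between 17 and 20 in each library.

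In counted reads the remaining genes stood far below. Mir30b, the partner of Mir30d, had 1210 counts in replicate 1 and 2054 in replicate 2, or 187 and 352 CPM (mean 269 ± 116, SD, n = 2). It had the widest relative spread of the 6, with an SD of 43.3% of its mean. Mir30c-1, the second Nfyc gene, had 513 and 655 counts, or 79.2 and 112 CPM (mean 95.7 ± 23.3, SD, n = 2). Mir30c-2 had 302 and 295 counts, or 46.7 and 50.5 CPM (mean 48.6 ± 2.72, SD, n = 2). By mean level these genes ranked 130, 191 and 217 of all listed genes.

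**Figure D1:**
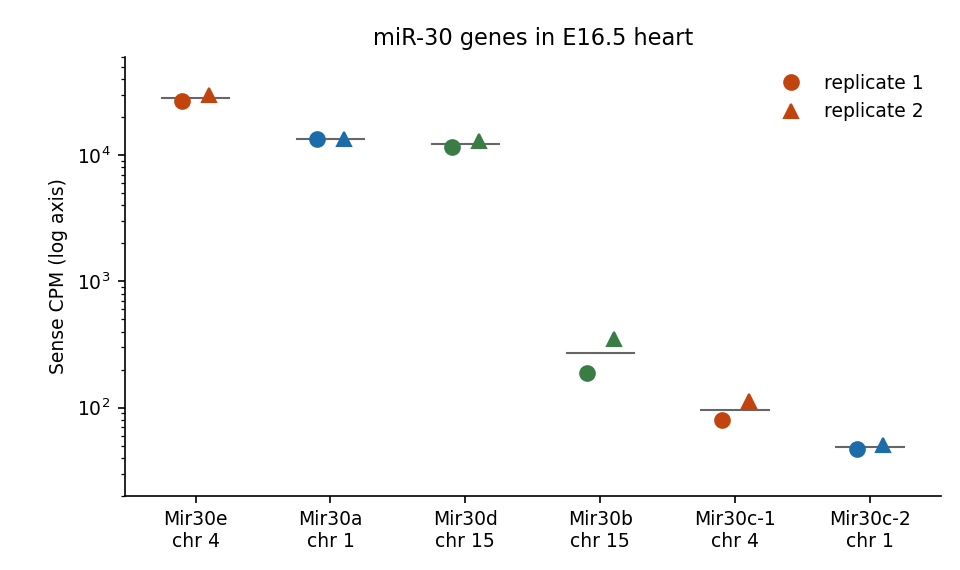
Sense CPM (log axis) of the 6 miR-30 genes, ordered by mean level, with circles for replicate 1, triangles for replicate 2 and a grey line at the mean; colour marks the chromosome. In counted reads each chromosome has a high gene, at 11618 CPM or more in both libraries, and a low gene, at 352 CPM or less. Counts of Mir30c-1 and Mir30c-2 leave out reads within the miR-30c-5p that both encode.

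The order of the 6 genes was the same in both libraries. Mir30e exceeded Mir30a 2.02-fold (exact 95% interval 2.00 to 2.03) in replicate 1 and 2.22-fold (2.20 to 2.24) in replicate 2. Mir30a and Mir30d were close, at 1.16-fold (1.15 to 1.17) and 1.04-fold (1.03 to 1.05). The log2 ratio of that pair was 0.13 ± 0.11 (SD, n = 2), so these neighbours in level are hardly apart beyond the spread between libraries. Mir30b exceeded Mir30c-1 2.36-fold (2.13 to 2.62) and 3.14-fold (2.87 to 3.43), and Mir30c-1 exceeded Mir30c-2 1.70-fold (1.47 to 1.96) and 2.22-fold (1.93 to 2.56). All 5 steps kept their direction in both libraries. The folds compare read counts, and equal capture of different miRNAs in the library was not tested. Counts of Mir30c-1 and Mir30c-2 also leave out reads of the miR-30c-5p that both encode. With all reads, the places of these genes in the order are not known.

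**Figure D2:**
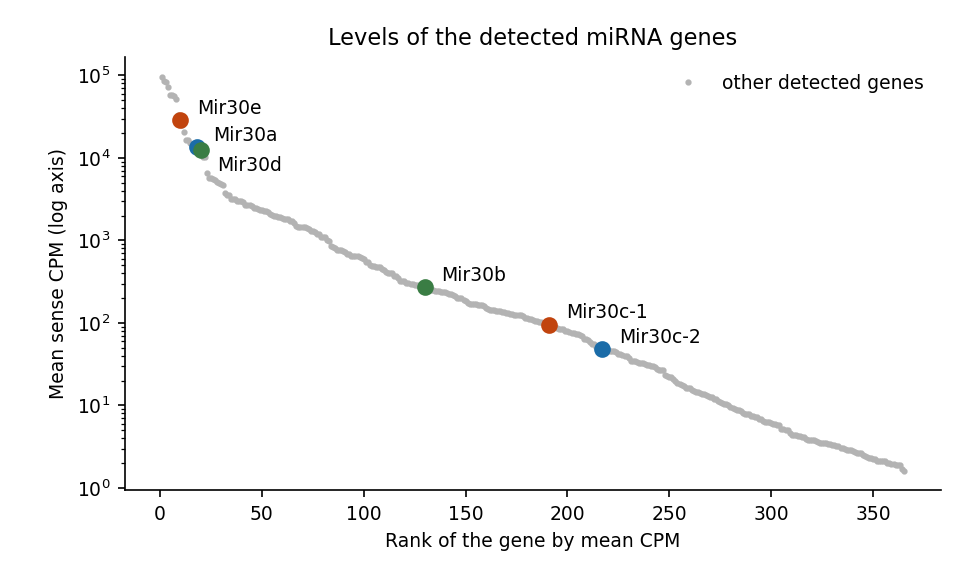
Mean sense CPM (log axis) of the 365 detected genes against their rank, with the miR-30 genes coloured by chromosome. In counted reads Mir30e, Mir30a and Mir30d are at ranks 10, 18 and 20, and Mir30b, Mir30c-1 and Mir30c-2 at ranks 130, 191 and 217. Counts of the Mir30c genes leave out reads within miR-30c-5p.

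Each linked pair was strongly uneven in counted reads. Mir30a exceeded Mir30c-2 288-fold (exact 95% interval 258 to 324) in replicate 1 and 268-fold (239 to 301) in replicate 2, a log2 ratio of 8.12 ± 0.08 (SD, n = 2). These intervals overlap. Mir30e exceeded Mir30c-1 342-fold (314 to 374) and 268-fold (248 to 289), a log2 ratio of 8.24 ± 0.25. Mir30d exceeded Mir30b 62.2-fold (58.7 to 65.8) and 37.1-fold (35.5 to 38.8), a log2 ratio of 5.59 ± 0.53. The latter 2 ratios were lower in replicate 2 by more than counting error.

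The Mir30c values carry a limit that the sequences above make visible. The hairpins of Mir30c-1 and Mir30c-2 share an unbroken run of 28 bases, which contains the whole of miR-30c-5p, and the size range of the libraries was under 30 (unit not stated). All 4 windows of 20 bases in miR-30c-5p occur in both hairpins, whereas none of the 3 windows of either 3p strand occurs in another RefSeq hairpin. A read inside the shared run matches both genes. The tables set reads matching several places apart from gene counts, and these were 29.5% and 31.9% of all reads. How many of them were miR-30c-5p is not recorded, so the levels of Mir30c-1 and Mir30c-2 and their ratios to Mir30e and Mir30a are uncertain, and those with all reads are not known. Mir30a and Mir30e shared no 20-base window with any other of the 1005 RefSeq hairpins, and their longest run in common is 18 bases. These hairpins do not include Mir30b and Mir30d, so sharing with those genes was not checked. Only exact matches were looked for, and how mismatches were treated in the deposited counts is not given. The 2 arms of a hairpin are counted as 1 gene and could not be separated in the counts. For Mir30c-1 and Mir30c-2, reads within miR-30c-5p are in neither count. Their ratios to Mir30e and Mir30a thus set counts without that strand against counts that can hold both arms.

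To place these ratios, all neighbouring detected miRNA genes on the same strand and less than 20000 bases apart were paired. Mir30a and Mir30c-2, 19361 bases apart, are close to this limit, and nearly all other pairs lay closer together. Pairs with an undetected gene were left out, which bounds how uneven the other pairs could be. There were 110 such pairs outside the miR-30 family, 40 of them on chromosome 12, with a median absolute log2 ratio of 3.22 (9.33-fold). The miR-30 pairs ranked 5 (Mir30e and Mir30c-1), 7 (Mir30a and Mir30c-2) and 25 (Mir30d and Mir30b) of 113, and 22 other pairs were at least as uneven as the last of them. The first rank went to Mir20a and Mir19b-1, at 10.1 on the log2 scale. Pairs in which a hairpin shared a 20-base window with another hairpin had a median of 3.50 (37 pairs), against 2.60 for pairs with no shared window (59 pairs) and 3.63 for pairs with a hairpin not in the table used (14 pairs). Both Mir30c pairs belong to the first kind and the pair of Mir30d and Mir30b to the last, and the part of shared reads in these ranks was not tested.

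**Figure D3:**
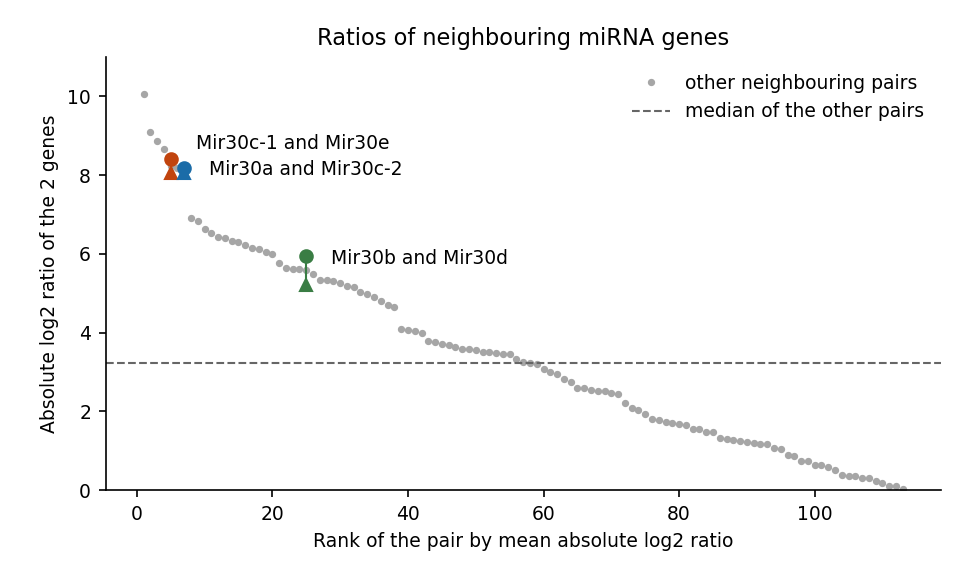
Absolute log2 ratio of the counts of 2 neighbouring miRNA genes (vertical axis) against the rank of the pair, with grey points for the mean of both libraries, and circles (replicate 1) and triangles (replicate 2) for the miR-30 pairs. The dashed line at 3.22 is the median of the 110 other pairs, and all 3 miR-30 pairs lie above it in both libraries. Reads matching several places are in no count.

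The 2 pools were compared gene by gene with an exact binomial test on counts, given TMM-scaled library sizes, with Benjamini-Hochberg adjustment over the 365 detected genes. This test sets 2 libraries side by side and measures counting error only. With a minimum difference of 2-fold, 0 of the 6 miR-30 genes passed, against 3.29% of all detected genes, and 0 when DESeq2 size factors or plain totals set the scaling. With no minimum fold 5 of 6 passed, all higher in replicate 2, where 46.3% of detected genes passed in either direction and 26.0% in that direction. At these depths very small differences pass, and the sizes matter more than the p-values.

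Mir30b differed most, 1.91-fold higher in replicate 2 (log2 ratio 0.94 ± 0.05, counting SE), with an adjusted p of 1.99e-73 by the exact binomial test. By absolute log2 ratio it ranked 18 of all 365 genes and 9 of the 197 with 10 to 1000 CPM. It was also the only member past a 1.5-fold minimum, which 7.95% of detected genes passed. Mir30c-1 followed at 1.44-fold (0.53 ± 0.09; adjusted p = 2.66e-09 by the exact test), at rank 30 of that class. Mir30c-2, with the lowest counts, had a log2 ratio of 0.14 ± 0.12 and an adjusted p of 0.372 by the exact test.

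The abundant members shifted little. Mir30d was 1.14-fold (log2 ratio 0.19 ± 0.01) and Mir30e 1.13-fold (0.17 ± 0.005) higher in replicate 2, with adjusted p-values of 1.77e-147 and 3.47e-268 by the exact test. Mir30a was 1.02-fold higher (0.03 ± 0.01; adjusted p = 2.22e-05, exact test), and it did not pass with total-count scaling (adjusted p = 0.489) or DESeq2 size factors (adjusted p = 0.0869). The median absolute log2 ratio of the 82 genes with at least 1000 CPM was 0.14. Mir30d and Mir30e lay at ranks 29 and 35 of these 82, and Mir30a at rank 69, so none stood out from genes of its level.

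All 6 log2 ratios were above 0, with a median of 0.18, while the median of all detected genes was 0.02 and 52.9% of those lay above 0. The edgeR biological coefficient of variation over all detected genes was 17.6%. The members share libraries and, in pairs, their surroundings, so they are not 6 independent observations.

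**Figure D4:**
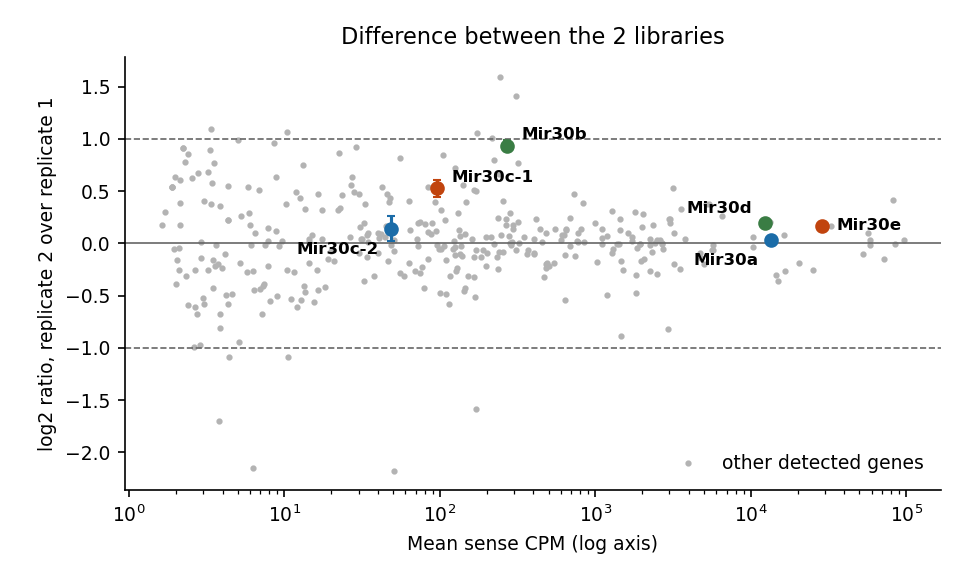
Log2 ratio of replicate 2 over replicate 1 (TMM-scaled) against mean sense CPM (log axis) for the 365 detected genes, with miR-30 genes coloured by chromosome and bars of 1 counting SE. Dashed lines mark a 2-fold difference; Mir30b, at 0.94, lies just inside it, and Mir30a, Mir30d and Mir30e lie between 0.03 and 0.19.

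Within the linked pairs on chromosomes 15 and 4 the lower gene differed more between the libraries than the higher gene. Mir30b differed 1.91-fold against 1.14-fold for Mir30d, and Mir30c-1 1.44-fold against 1.13-fold for Mir30e. On chromosome 1 Mir30c-2 differed 1.10-fold and Mir30a 1.02-fold, and the former difference did not pass the test. Genes of lower level also differed more in general, with a median absolute log2 ratio of 0.19 for the 197 with 10 to 1000 CPM. It was 0.14 for the 82 with at least 1000 CPM. Whether the linked pairs depart from this was not tested. Counts of Mir30c-1 and Mir30c-2 also leave out reads within miR-30c-5p.

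The other listed gene found with the 5p seed had few counts. Mir384, on the X chromosome and known from brain, had 14 and 5 counts (2.16 and 0.856 CPM) and was not detected by the 10-count limit. Mir6958, which shares a 3p seed with the Mir30c genes, had 10 and 9 counts.

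On the opposite strand each of the 6 genes had 0 counts in both libraries. A count of 0 allows up to 3 counts, or 0.463 CPM in replicate 1 and 0.514 CPM in replicate 2. This also bears on Mir30f, annotated by RefSeq on the other strand of the Mir30e hairpin and not among the listed genes. Its mature strand is shown with the miR-30 seed letters in capitals, which begin at base 1 rather than at base 2.
miR-30f: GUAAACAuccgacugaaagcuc

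Of the 365 detected genes 32 had at least 1 opposite-strand count, and no member was among them.

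By distance in log2 CPM over the 2 libraries, the genes nearest in level were Mir26b for Mir30e (distance 0.29), Mir21a for Mir30a (0.10) and Mir17 for Mir30d (0.17). Mir26b stood at 31253 and 34469 CPM, Mir21a at 14066 and 14231, and Mir17 at 12548 and 14230. The low members were nearest to Mir128-1 for Mir30b (0.26), Mir146 for Mir30c-1 (0.10) and Mir194-1 for Mir30c-2 (0.11). With 2 libraries, closeness in level carries no information on shared control.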

How the data were processed

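MicroRNA-seq of total RNA from 2 pools of mouse heart tissue was used. The authors deposited raw counts of reads per miRNA gene, made on mm10 with annotation M4 per the labels and the deposited file lists. For the aligner, counter and trimming nothing is given in the sources used here. The tables had 3 count columns (either strand, then each strand); the second was taken as sense. The first 4 lines name no gene and were left out of totals: unmapped reads (22.4% and 17.2% of reads), reads matching several places, reads outside listed genes (2.99% and 2.66%) and ambiguous reads (0).

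Symbols, positions and hosts came from GENCODE M21, matched on identifiers without version (1894 of 1973 listed genes); the version of 1 miR-30 gene, Mir30a, differs. Sequences are those of RefSeq on GRCm38.p6.

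With 1 group there is no contrast, so edgeR's quasi-likelihood test was not applicable. TMM scaling and the intercept-only dispersion used edgeR 4.0.16 (R 4.3.3). Log2 ratios had 0.5 added to each count, and calls needed an adjusted p under 0.05. Shares have Wilson and ratios exact Clopper-Pearson 95% intervals (scipy 1.17.1, Python 3.11.15). No molecular identifiers are given, so counting error is all that the intervals and floors cover. The libraries are labelled biological replicates, and p-values measure only these 2 libraries. Alternatives were other denominators, DESeq2 1.42.0 and total-count scaling, other count and fold limits, the either-strand column and leaving out each library.

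Named genes were all members, listed genes sharing a mature seed with them, the nearest gene in level to each and tissue markers. Mir20a and Mir19b-1 were named after their values were seen, and neighbouring pairs were defined after the counts were seen. The members and lists were chosen with earlier results of these data known.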

Additional observations from a re-analysis of the deposited data

How the results depend on the processing

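The summed miR-30 level followed its denominator: 2.41% of all reads, 3.23% of sense counts plus reads matching several places, 5.15% in the either-strand column and 6.06% without the most abundant gene, against 5.48%. Leaving out each library gave 5.25% to 5.71%. When each library was left out, the log2 ratio of Mir30a over Mir30c-2 ranged from 8.06 to 8.17. That of Mir30e over Mir30c-1 ranged from 8.06 to 8.42, and that of Mir30d over Mir30b from 5.21 to 5.96. These are only the ratios of the single libraries. The either-strand column gave the same ratios, as it must, since each member had 0 opposite-strand counts. Neither alternative adds a check on the ratios. The number of genes that differ by at least 2-fold was 12, and 21 with no count filter (725 genes tested), 5 with 50 or more counts in each library (280 tested), 29 at a 1.5-fold minimum and 169 with no minimum. Under the scaling, filter and strand alternatives the log2 ratio of Mir30b between libraries stayed within 0.91 to 0.94, Mir30c-1 0.50 to 0.53, Mir30c-2 0.11 to 0.14, Mir30d 0.17 to 0.20 and Mir30e 0.15 to 0.17. That of Mir30a ran from 0.01 to 0.03, with adjusted p-values by the exact test from 9.57e-06 to 0.489. None of these alternatives changes the members' own counts, so each shifts the log2 ratios of all members by the same amount. The narrow ranges were fixed by this and do not test how steady any member is. Leaving out a library cannot be run for a comparison of 2 libraries. No paired analysis was possible because the labels define a single group.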
